A study of Sus scrofa with 16 samples.

Results

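The miR-15/16 family of the pig ovary is described here through its 5 measured members, miR-15a, miR-15b, miR-16, miR-195 and miR-497. Members were taken by name alone, as each entry of the miRNA count table named ssc-miR-15a, ssc-miR-15b, ssc-miR-16, ssc-miR-195, ssc-miR-424, ssc-miR-497 or ssc-miR-503, and 5 of the 1940 entries were found. All 5 were among the 216 known miRNAs, and the other 1724 entries of the table were predicted miRNAs. miR-424 and miR-503, which complete the family, were not analysed here. The small RNA libraries came from the ovaries of 16 Canadian Large White sows without kinship, 1 library per sow and 4 sows per group. Ovaries of 8 sows were sampled on day 14, in the luteal phase, from the LH group of high and the LL group of low fecundity, and ovaries of the other 8 on day 20, in the follicular phase, from the FH group of high and the FL group of low fecundity. Fecundity was the number of piglets born per litter, and the labels name no treatment or allele. The study names ovarian tissue as the material, and its methods do not say whether whole ovaries or pieces were used. Such tissue holds many cell types, so that fewer cells of a type and less RNA per cell cannot be told apart. All LH sows had a higher parity than all LL sows, so that parity and fecundity cannot be told apart in the luteal phase.

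A miRNA guides the silencing machinery to messenger RNAs that pair with its seed, the bases near its 5′ end. The members of the miR-15/16 family share this seed. They are known to repress the cell cycle regulators cyclins D and E, CDK6, WEE1 and CHEK1, as well as the survival factor BCL2. In the ovary, follicles grow in the follicular phase by the division of granulosa cells, and in the luteal phase most steroid-producing cells of the corpus luteum have left the cell cycle. Beside the members, several groups of related miRNAs were followed. These were miR-450 and miR-542, which lie in the X chromosome cluster of miR-424 and miR-503, miR-103 and miR-107, whose seed matches that of the family when shifted by a base, the miR-17-92 group, which drives proliferation, and other miRNAs known to restrain the cell cycle.

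The members are made in pairs. In the RefSeq annotation of Sscrofa11.1, MIR15A lies next to a copy of MIR16 between the coding genes DLEU7 and KCNRG, MIR15B lies next to the other copy between SMC4 and TRIM59, and MIR195 lies next to MIR497 between C12H17orf49 and BCL6B. Both MIR16 copies yield the same mature miRNA, which the table holds as a single entry. MIR450A, MIR450B, MIR450C and MIR542 lie together between HPRT1 and PLAC1. Of the 1724 predicted miRNAs, 1700 had a mature sequence in the table of predictions, and they were searched for the letters AGCAGC, the core of the family's seed, at bases 2 to 7 of the mature strand. The search found 3 sequences (0.176% of the 1700), which are shown because they are the predicted entries that carry the family's seed letters, here in capitals. The other known miRNAs were not searched. Their loci are those of the predictions on Sscrofa10.2, chr2:3032521-3032579 (minus strand) for NovelmiRNA-548, chr2:3032521-3032580 (minus strand) for NovelmiRNA-1442 and chr18:20562652-20562697 (minus strand) for NovelmiRNA-884.
NovelmiRNA-548: uAGCAGCggggggacuuacucu
NovelmiRNA-1442: uAGCAGCggggggacuuacucu
NovelmiRNA-884: gAGCAGCgcgcgagaggg
The first 2 share their sequence and their locus. Over the 16 libraries they had 43 and 37 counts, and no library held counts of both. NovelmiRNA-884 had 50 counts in 3 libraries, with at most 23 in a library. The lowest count of any named member in any library was 263, of miR-15a in FL2, so that the predicted entries added little to the family's counts.

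Library totals ran from 8998496 to 37194836 counts, of which the known miRNAs held 97.1% to 99.2%. Levels are given in CPM, a miRNA's counts scaled to a common library size, after TMM scaling, a normalization that sets most miRNAs level between libraries. The TMM factors ran from 0.670 in FH2 to 1.74 in LL1, and those of LL (1.19 to 1.74) were all above those of LH (0.851 to 1.07). Of the marker lists, the ovary and granulosa cell miRNAs (miR-202-5p, miR-224 and miR-383) summed to between 75.2 and 3873 CPM, and no marker of this list was at 0 in every library of a group. miR-142-5p, a leukocyte miRNA, was at 0 in all 4 LH libraries.

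The family made up a small part of the ovarian miRNA counts. Its share of all counts was 0.252% ± 0.0628 in FH, 0.217% ± 0.0527 in FL, 0.189% ± 0.0433 in LH and 0.179% ± 0.0430 in LL (with the SD after ±, over 4 sows per group). The most abundant member over the 16 libraries was miR-195 with a mean of 915 CPM, rank 58 of the 216 known miRNAs, followed by miR-497 with 717 CPM (rank 60) and miR-16 with 499.9 CPM (rank 72). The order of the last 2 depended on the groups, since their medians were 505 CPM for miR-497 and 508 CPM for miR-16, and in LH and LL the mean of miR-16 (525 and 418 CPM) was above that of miR-497 (409 and 351 CPM). miR-15b with 49.7 CPM (rank 138) and miR-15a with 32.7 CPM (rank 147) were far lower. Libraries capture miRNAs unequally, so these are levels in reads and the order need not be that of the molecules. The members also differed in how much they varied, since the highest library exceeded the lowest by 13.8-fold for miR-497 and 8.36-fold for miR-195, but by 2.97-fold for miR-16, 2.45-fold for miR-15a and 2.33-fold for miR-15b. The plot of the members' levels by library shows that the spread of miR-195 and miR-497 followed the groups in part.

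**Figure D1:**
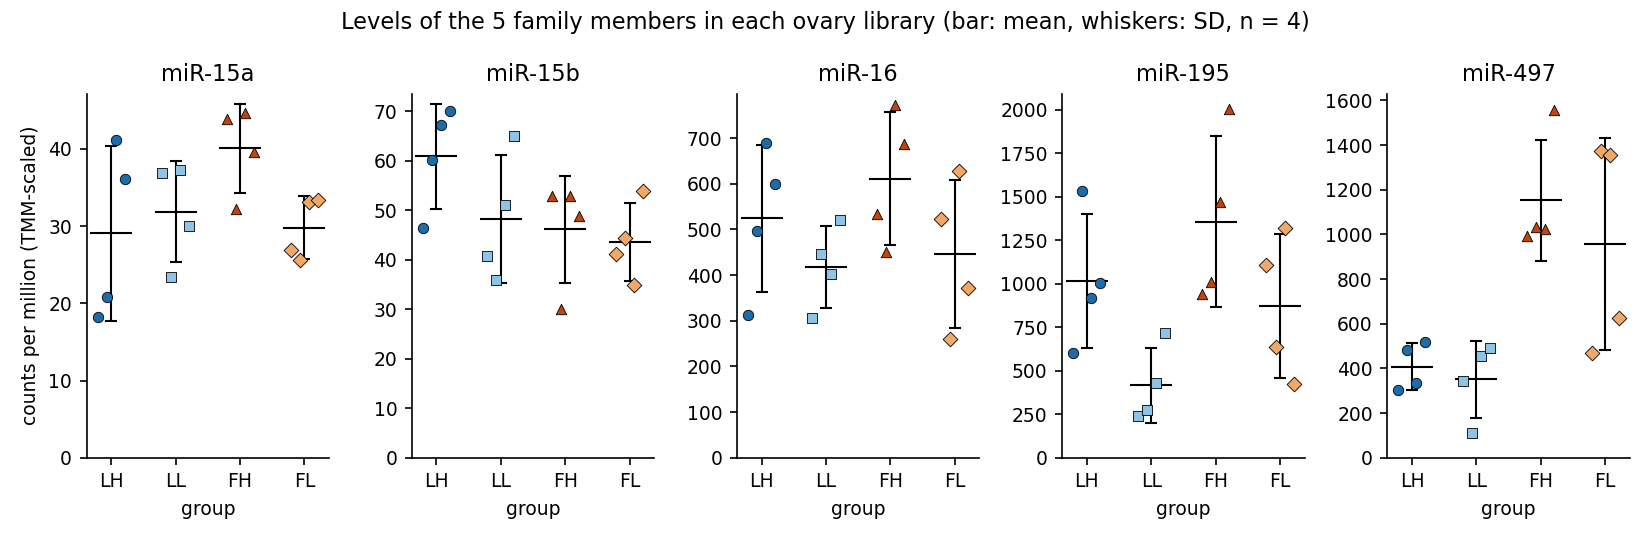
CPM (TMM-scaled, linear axes from 0) of the 5 members in the 16 libraries; each point is a sow, the bar is the group mean and the whiskers the SD (n = 4). The 4 FH libraries of miR-497 lie between 995 and 1558 CPM, above all 8 luteal libraries, and 3 of the 4 LL libraries of miR-195 lie below all LH libraries.

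The first question was which members differed between the phases. miR-497 was lower in the luteal phase at both levels of fecundity, though at low fecundity its adjusted p was 0.144 by edgeR. In the main edgeR fits it was the only member past the threshold in any comparison of the phases. The threshold, the one used in the study, was an unadjusted P under 0.05 together with a log2 fold change of 1 or more in either direction, and p-values adjusted over all miRNAs tested are given beside it. All 5 members passed the filter on low counts in every comparison.

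The level of miR-497 was 303, 482, 334 and 517 CPM in LH1 to LH4 and 995, 1034, 1024 and 1558 CPM in FH1 to FH4. It was 343, 113, 455 and 493 CPM in LL1 to LL4 and 470.2, 1372, 1357 and 626 CPM in FL1 to FL4. Every FH library was thus higher than every LH and LL library, while FL1 lay inside the luteal range and FL2 and FL3 inside the FH range. The group means were 1153 ± 271 CPM in FH, 956 ± 476 in FL, 409 ± 106 in LH and 351 ± 171 in LL (SD, n = 4). Neighbours in this order differed by less than their spread between FH and FL and between LH and LL, and the ranges of FL and LH overlapped through FL1.

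In the high fecundity sows miR-497 was 2.74-fold lower in LH than in FH (log2 fold change -1.45, SE 0.236, adjusted p = 0.0297, edgeR). It was the third miRNA by P of 323 tested, and 1 of only 3 with an adjusted p under 0.05 (0.929% of those tested). It was also the only member whose LH and FH libraries did not overlap, whereas 6.5% of the miRNAs tested lay without overlap on the lower side. It stayed past the threshold in each of 18 alternative analyses, which left out each sow in turn or changed the scaling, the filter, the tool or the covariates, but its adjusted p was under 0.05 in 3 of them and in none of those without a sow (adjusted p from 4.2e-05 to 0.276). Of the 323 miRNAs tested, 12.4% were past the threshold in this comparison in either direction and 2.79% on the lower side, and 1 of 5 members was.

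In the low fecundity sows miR-497 was 2.43-fold lower in LL than in FL (log2 fold change -1.28, SE 0.542, adjusted p = 0.144, edgeR). This was a comparison in which 29.8% of miRNAs were past the threshold and 14.2% on the lower side, so that 1 of 5 members was close to the background. The call was lost without LL1, LL2, LL3, FL2 or FL3 (log2 fold changes of -1.39, -0.99, -1.48, -1.21 and -1.23), with library size scaling (-0.88), with parity (-1.09), with the clean read share (-1.14) or with a replicate block (-1.32), and held in 9 of 18 alternatives. LL2, with 113 CPM, was the lowest of all libraries for this miRNA.

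Over all 16 libraries miR-497 was 2.77-fold lower in the luteal than in the follicular phase (log2 fold change -1.47, SE 0.316, adjusted p = 0.00689, edgeR). In this fit 23.4% of 445 miRNAs were past the threshold, 10.3% on the lower side, and 17.5% had an adjusted p under 0.05. The result was past the threshold in 25 of 25 alternatives, the 16 without a sow included, with an adjusted p under 0.05 in 24 and 0.0559 without the filter. The change did not differ detectably between the fecundity levels (interaction log2 fold change 0.049, SE 0.619, adjusted p = 1.00, edgeR). The comparisons of the phases share their libraries and are not independent of each other.

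miR-195, made next to miR-497, had a smaller difference between the phases. Its level was 604, 1532, 921 and 1006 CPM in LH1 to LH4, 239.6, 276, 432 and 716 CPM in LL1 to LL4, 938, 1012, 1468 and 2002 CPM in FH1 to FH4, and 1109.8, 638, 1320 and 422 CPM in FL1 to FL4. LL1 and LL2 were the lowest of all libraries, FH4 the highest, and LH2 and FH3 came next to it. The ranges of LH and FH overlapped, as did those of LL and FL. The group means were 1355 ± 491 CPM in FH, 1016 ± 385 in LH, 872 ± 414 in FL and 416 ± 217 in LL (SD, n = 4), and neighbours among FH, LH and FL differed by less than their spread.

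The luteal against follicular log2 fold change of miR-195 was -0.74 over all libraries (SE 0.311, adjusted p = 0.117), -0.37 for LH vs. FH (adjusted p = 0.594) and -1.002 for LL vs. FL (adjusted p = 0.212), by edgeR. The unadjusted P of the first was under 0.05, and its adjusted p was under 0.05 in 2 of 25 alternatives. None of these fold changes was past the threshold in the main fits. The LL vs. FL value was past it in 6 of 18 alternatives, among them DESeq2 (-1.11), the scaling on known miRNAs (-1.19) and the fits without LL4 (-1.40) or FL4 (-1.41).

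miR-16, with the same seed but made from the miR-15a and miR-15b loci, was nearly level between the phases. Its level was 534, 451, 772 and 688 CPM in FH, 523, 259.5, 628 and 372 CPM in FL, 314, 496, 689 and 599.8 CPM in LH and 306, 445, 402 and 520.3 CPM in LL, each in the order of replicates 1 to 4. All 4 groups overlapped. The luteal against follicular log2 fold change over all libraries was -0.16 (SE 0.227, adjusted p = 0.684, edgeR), and it was 0.27 when the libraries were scaled by size only, so that no direction can be given.

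miR-15a and miR-15b were low in all libraries. miR-15a was 43.8, 32.2, 44.6 and 39.6 CPM in FH, 26.9, 25.6, 33.1 and 33.4 CPM in FL, 18.2, 20.8, 41.1 and 36.1 CPM in LH and 36.9, 23.4, 37.2 and 30.1 CPM in LL. miR-15b was 52.8, 30.1, 52.9 and 48.8 CPM in FH, 41.2, 44.3, 34.9 and 53.9 CPM in FL, 46.3, 60.1, 67.2 and 70.2 CPM in LH and 40.8, 36.0, 51.1 and 65.1 CPM in LL. LH1 and LH2 were the lowest libraries of miR-15a, and LH3 and LH4 the highest of miR-15b, but the groups overlapped for both. The luteal against follicular log2 fold changes over all libraries were -0.18 for miR-15a (SE 0.252, adjusted p = 0.661; 0.22 with library size scaling) and 0.27 for miR-15b (SE 0.229, adjusted p = 0.440), by edgeR. In LH vs. FH miR-15a had a log2 fold change of -0.44 (adjusted p = 0.567, edgeR) and was past the threshold in 1 of 18 alternatives, the fit adjusted for clean reads (-1.08, adjusted p = 0.320).

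The second question was which members differed between high and low fecundity. miR-195 fell in LL against LH, and no member was past the threshold in FH vs. FL, in edgeR or in any of its 18 alternatives. In that comparison none of the 5 members had an unadjusted P under 0.05 by edgeR, and 1, miR-15a, did by DESeq2. In the luteal phase the level of miR-195 was 2.44-fold lower in LL than in LH (log2 fold change -1.29, SE 0.435, adjusted p = 0.240, edgeR). Only LL4, with 716 CPM, exceeded an LH library, LH1 with 604 CPM. Of 362 miRNAs tested, 13% were past the threshold and 6.35% on the lower side, and 1 of 5 members was. The call was lost without LH2 (log2 fold change -1.03), with library size scaling (-0.71), with parity (-2.31, SE 1.06) or when adjusted for the clean read share (-0.86), and held in 14 of 18 alternatives. Over all 18, the lost ones included, the adjusted p ran from 0.0486 with DESeq2 to 0.770.

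In the follicular phase the log2 fold change of miR-195 in FL against FH was -0.60 (SE 0.450, adjusted p = 0.704, edgeR), in a comparison in which 6.19% of 307 miRNAs were past the threshold. The test of the difference between the phases gave an adjusted p = 0.696 for miR-195 (interaction log2 fold change -0.65, SE 0.620), so that a difference of its fecundity change between the phases was not shown. Over all 16 libraries the log2 fold change of low against high fecundity was -0.96 (SE 0.312, adjusted p = 0.223, edgeR), just short of the fold required. It was past the threshold in 11 of 25 alternatives and had an adjusted p under 0.05 in 1 of the 25. In the main fit miR-195 ranked 16 of 445 by P, among which 11.7% were past the threshold and none had an adjusted p under 0.05 by edgeR, whereas 78 had an unadjusted P under 0.05 and DESeq2 gave 52 with an adjusted p under 0.05.

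The other members gave no call for fecundity. In LH vs. LL the log2 fold changes were -0.21 for miR-497 (SE 0.465), -0.30 for miR-16 (SE 0.293), -0.32 for miR-15b (SE 0.331) and 0.17 for miR-15a (SE 0.404). In FH vs. FL they were -0.32 for miR-497 (SE 0.359), -0.46 for miR-16 (SE 0.362), -0.12 for miR-15b (SE 0.299) and -0.47 for miR-15a (SE 0.275). All 5 members had a negative value in FH vs. FL, with a median of -0.46 beside 0.12 over all 307 miRNAs and 0.044 over the known ones. With library size scaling, however, miR-15b and miR-497 were above 0 (0.22 and 0.04). In LH vs. LL the median of the members was -0.30 beside 0.15 over all 362 miRNAs and 0.016 over the known ones. With library size scaling, which moved the median of all miRNAs up by 0.60, miR-15b, miR-16 and miR-497 were above 0 (0.28, 0.30 and 0.41). The split of all calls in LH vs. LL also moved with it, from 24 higher and 23 lower to 57 higher and 11 lower. The plot of fold changes sets the members side by side.

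**Figure D2:**
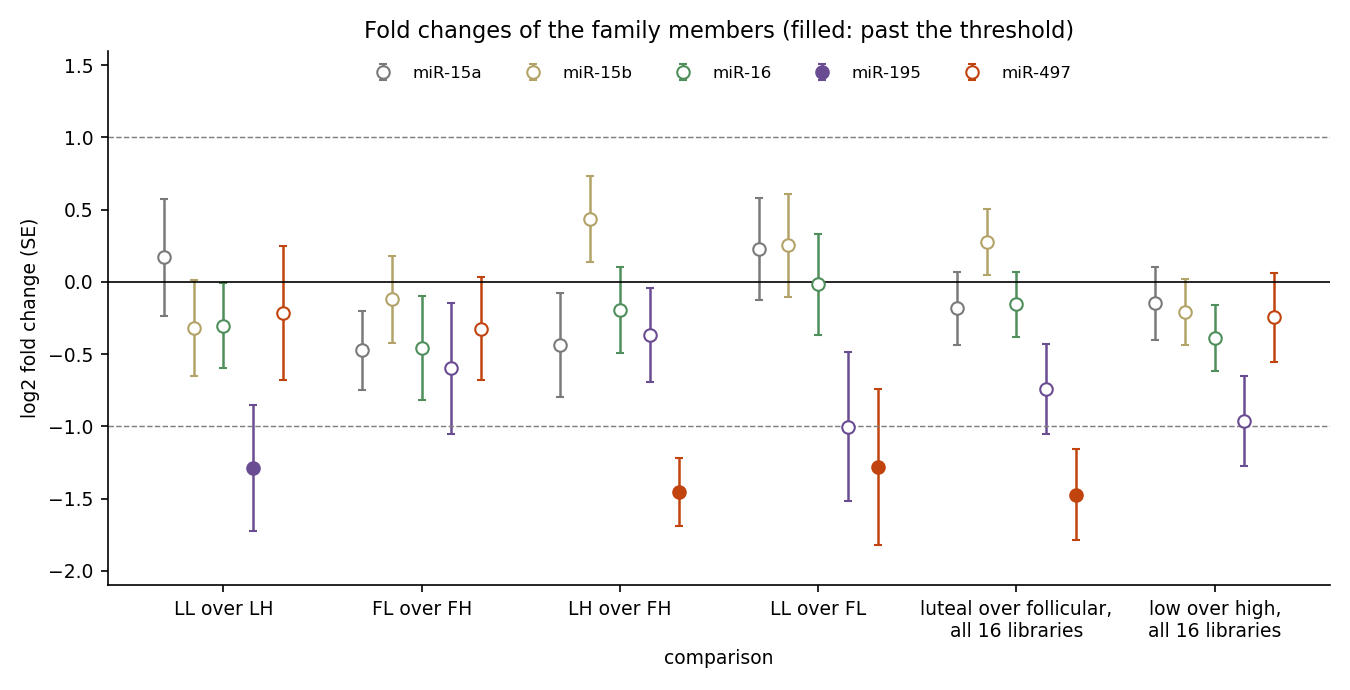
Log2 fold changes (points) with their SE (bars) of the 5 members in 6 comparisons by edgeR; filled points are past the threshold and dashed lines mark a log2 fold change of 1 in each direction. Filled points are miR-195 in LL over LH (-1.29) and miR-497 in LH over FH (-1.45), LL over FL (-1.28) and the phases over all 16 libraries (-1.47).

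Ratios of members within a library need no scaling between libraries. miR-497 and miR-195, made side by side, did not keep a fixed ratio. The ratio of miR-497 to miR-195 counts was 0.698 to 1.06 in FH, 0.424 to 2.15 in FL, 0.314 to 0.514 in LH and 0.408 to 1.43 in LL. All LH libraries were below all FH libraries, and the LL and FL ranges were wide and overlapped both. The mean log2 ratio was lower by 0.76 in the luteal phase (exact two-sided permutation test within fecundity levels, p = 0.0506, adjusted p = 0.179 over 8 ratio tests) and higher by 0.64 at low fecundity (exact permutation p = 0.0845, adjusted p = 0.179). Neither passed the adjusted threshold of 0.05. Without FL1, in which miR-497 was low beside miR-195, the differences were -0.98 (exact permutation p = 0.0049) and 0.86 (exact permutation p = 0.0057), both with an adjusted p = 0.0229. Without FL2, in which miR-497 was high beside miR-195, they were -0.59 (exact permutation p = 0.114) and 0.47 (exact permutation p = 0.183).

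**Figure D3:**
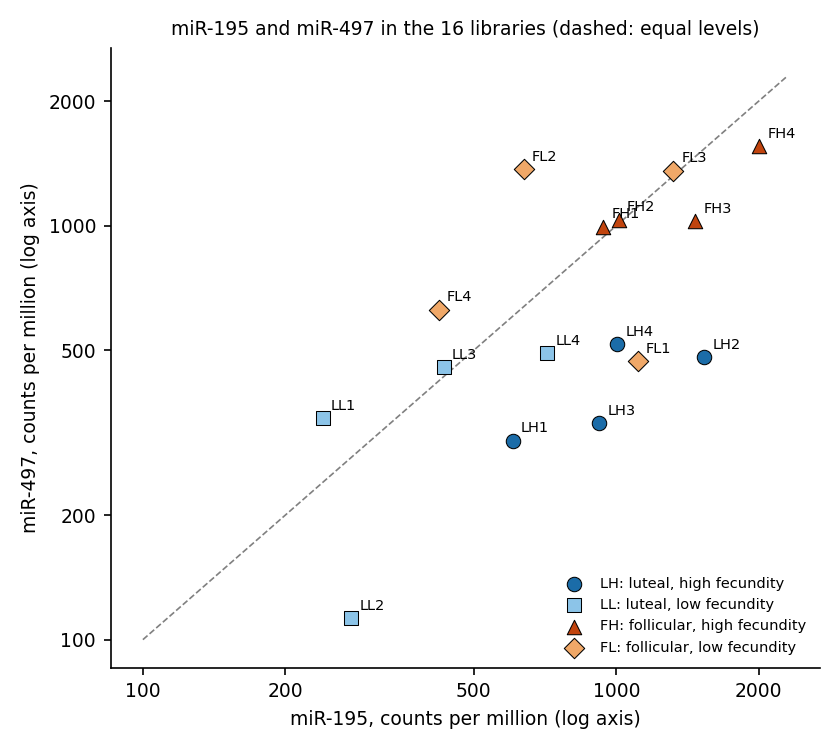
CPM of miR-195 (x axis) and miR-497 (y axis), both on log axes, in the 16 libraries; each point is a sow and the dashed line marks equal levels. The 4 LH libraries lie below the line with miR-497 at 303 to 517 CPM, and FH1 and FH2 lie on it at 995 and 1034 CPM.

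The ratio of miR-15b to miR-15a, which come from different loci, was 0.937 to 1.23 in FH, 1.05 to 1.73 in FL, 1.63 to 2.89 in LH and 1.11 to 2.16 in LL. The LH and FH ranges did not overlap, and the LL and FL ranges did. The mean log2 ratio was higher by 0.50 in the luteal phase (exact two-sided permutation p = 0.0310, adjusted p = 0.179), with 0.96 between LH and FH and 0.04 between LL and FL. The ratios of miR-15a to miR-16 (log2 difference of -0.08 between the phases, exact permutation p = 0.7004) and of miR-15b to miR-16 (0.42, exact permutation p = 0.0894) did not pass either.

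The make-up of the family's counts moved with these ratios. miR-195 held 41.5% ± 4.25 of the family's counts in FH, 36.4% ± 11.2 in FL, 49.0% ± 6.80 in LH and 31.6% ± 5.91 in LL (SD, n = 4). miR-497 held 36.4% ± 4.37 in FH, 40.5% ± 15.1 in FL, 20.4% ± 3.56 in LH and 27.0% ± 10.3 in LL. miR-16 held 19.3% ± 3.18 in FH, 19.6% ± 6.31 in FL, 26.01% ± 6.0 in LH and 34.8% ± 10.1 in LL. miR-195 was the largest member in all 4 LH libraries, and miR-497 was in 3 of the 4 FL libraries, FL1 being the exception. In LL no member led throughout, since miR-497 was the largest in LL1 and LL3, miR-195 in LL4 and miR-16 in LL2, where it held 49.9%. miR-15a and miR-15b together stayed small, with group means of 1.30% to 2.70% and 1.48% to 3.89%.

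**Figure D4:**
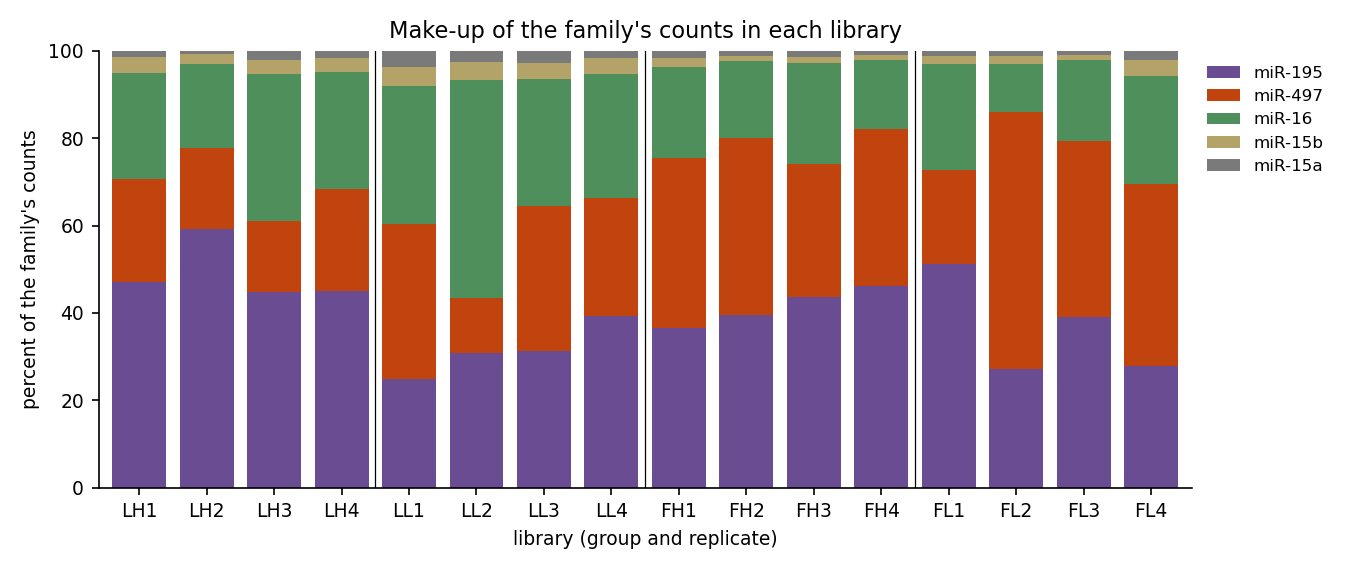
Percent of the family's counts held by each member in the 16 libraries, stacked to 100%; each bar is a sow and vertical lines part the groups. miR-195 holds 24.8% in LL1 and 59.1% in LH2, and miR-497 holds 12.6% in LL2 and 58.6% in FL2.

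Across the 16 libraries the members followed each other to different degrees. Pearson correlations of log2(CPM + 1), with a pseudocount of 1, were 0.70 for miR-16 with miR-195 and 0.64 for miR-195 with miR-497, and fell to -0.08 for miR-15b with miR-497. The median over all pairs of known miRNAs was 0.03. These are descriptions over libraries that share group differences and scaling. Of the 191 other known miRNAs compared, those most like miR-195 were miR-199b-5p and miR-199a-5p (both r = 0.95), whose counts were nearly the same as each other and which are known from fibroblasts and other mesenchymal cells. Those most like miR-497 were miR-19b (r = 0.90) and miR-145-5p (r = 0.87), a smooth muscle miRNA. Those most like miR-16 were miR-20a (r = 0.82) and miR-374a-5p (r = 0.80), those most like miR-15b were miR-106a (r = 0.80) and miR-17-5p (r = 0.74), and those most like miR-15a were miR-545-5p (r = 0.85) and miR-219 (r = 0.72), which averaged only 5.02 and 3.58 CPM, respectively.

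Markers of several cell types also differed between the groups. The smooth muscle miRNAs miR-143-3p and miR-145-5p, both detected in all groups, summed to 232330 to 444650 CPM in FH, 170440 to 310980 in FL, 111490 to 212840 in LH and 71951 to 91143 in LL. Like miR-497 they were lower in the luteal phase at each level of fecundity, though the LH and FL ranges overlapped. They were lowest in LL, where miR-195 and miR-497 also had their lowest group means. The skeletal or cardiac muscle miRNAs, of which 1 of 6 was at 0 in LL and in FH, summed to 1883 to 4256 CPM in FH, 565 to 3034 in FL, 2155 to 3256 in LH and 449 to 984 in LL. Most of this sum was miR-1. Over the phases 3 of the 5 tested fell past the threshold, against 10.3% of all miRNAs on the lower side. By contrast, miR-499-5p had a log2 fold change of 0.94 (adjusted p = 0.0146, edgeR) and rose in LL against FL (1.66, adjusted p = 0.0121, edgeR). The 4 leukocyte miRNAs summed to 1568 to 2070 CPM in FH, 1489 to 2994 in FL, 827 to 1370 in LH and 1221 to 1941 in LL, so that LH lay below FH without overlap. Over the phases 2 of them fell past the threshold, against 10.3% of all miRNAs on the lower side. These were miR-150 (-1.23, adjusted p = 0.0377, edgeR) and miR-142-5p (-7.60, adjusted p = 0.0170, edgeR). The latter was at 0 in all 4 LH libraries and had a log2 fold change of -0.21 in LL vs. FL. miR-146a-5p had -0.65 and miR-155-5p, of the opposite sign, 0.35, neither past the threshold.

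The 3 ovary and granulosa cell miRNAs summed to 277.5 to 1306 CPM in FH, 75.2 to 601 in FL, 1213 to 2724 in LH and 1338 to 3873 in LL. Nearly all of this was miR-202-5p, which rose in the luteal phase (2.02, adjusted p = 0.00824, edgeR), whereas miR-383, at group means of at most 1.81 CPM, had a log2 fold change of -2.06 (adjusted p = 0.230). The endothelial miR-126-5p was 8135 to 11872 CPM in FH, 2461 to 11048 in FL, 7751 to 22206 in LH and 15242 to 26360 in LL. The 2 erythroid miRNAs summed to 32.1 to 186 CPM over all libraries, and neither was past the threshold over the phases. The 5 miRNAs of tubal or other epithelium summed to 277 to 300.4 CPM in FH, 157 to 16082 in FL, 145 to 21828 in LH and 383 to 1016 in LL. The wide ranges within FL and LH came mostly from miR-34c, with means of 5675 CPM in FL and 5396 CPM in LH. The next highest means were those of miR-182, 119 and 328 CPM. The list was mixed over the phases. miR-182 (2.06, adjusted p = 0.0183) and miR-183 (2.45, adjusted p = 0.0242) rose, miR-205 fell (-1.83, adjusted p = 0.0170, edgeR), and miR-34c and miR-429 were not past the threshold. The part of cell types in the levels of miR-497 and miR-195 was not tested.

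Of the related miRNAs, those of the X chromosome cluster were higher in the luteal phase. Over all libraries 3 of the 4 (miR-450a, miR-450b-5p, miR-450c-5p and miR-542-5p) rose past the threshold, against 13% of all miRNAs on the higher side, with log2 fold changes of 1.67 for miR-450c-5p (SE 0.298, adjusted p = 0.00224), 1.62 for miR-450b-5p (SE 0.410, adjusted p = 0.0170) and 1.47 for miR-450a (SE 0.281, adjusted p = 0.00295) by edgeR. In LL vs. FL all 4 were past the threshold, higher, with 3 of them at an adjusted p under 0.05. Of the 339 miRNAs tested there, 60 had an adjusted p under 0.05 and 53 were past the threshold on the higher side. In LH vs. FH only miR-450b-5p was past it (1.46, adjusted p = 0.240), with a list median of 0.82, and in 5 of the 8 fits without a sow none was. The test of the difference between the fecundity levels was past the threshold for miR-450a (interaction log2 fold change 1.76, adjusted p = 0.167) and miR-450c-5p (1.68, adjusted p = 0.189), beside 13.3% of all miRNAs. The count over all libraries was 3 or 4 of 4 in each alternative.

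Between LH and LL, 3 of the 4 miRNAs of the cluster were past the threshold and higher in LL, namely miR-450a (1.32, adjusted p = 0.220), miR-450c-5p (1.26, adjusted p = 0.244) and miR-542-5p (1.196, adjusted p = 0.254), against 6.63% of all miRNAs. The median of the list was 1.23 beside 0.15 over all miRNAs and 0.016 over the known ones. The mean level of miR-450a was 486 ± 302 CPM in LH and 1200.4 ± 273 CPM in LL, whereas miR-450b-5p was 869.6 ± 495 CPM in LH and 842 ± 307 in LL, with a log2 fold change near 0. The count was 0 with parity as a covariate, where the list median was 1.21, and 1 or 2 in each of the 8 fits without a sow, where it ran from 0.94 to 1.45. In FH vs. FL none of the 4 was past the threshold by edgeR or by DESeq2, and none had an unadjusted P under 0.05 by edgeR.

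Of miR-103 and miR-107, with the shifted seed, miR-103 rose in the luteal phase over all libraries (log2 fold change 1.06, SE 0.185, adjusted p = 0.00222), and miR-107 had 0.93 (SE 0.206, adjusted p = 0.00785), short of the fold required. In LL vs. FL both were past the threshold with an adjusted p under 0.05 (1.92 and 2.03). Of the 339 miRNAs tested there, 60 had an adjusted p under 0.05 and 53 were past the threshold on the higher side. In LH vs. LL miR-107 was past it (1.25, adjusted p = 0.101) and miR-103 was not (0.80, adjusted p = 0.202), by edgeR. In FH vs. FL the values were of opposite sign and short of the threshold, -0.80 for both miR-103 (adjusted p = 0.591) and miR-107 (adjusted p = 0.606). The interaction was past the threshold for both, beside 13.3% of all miRNAs. It was 1.51 for miR-103 (adjusted p = 0.0813) and 1.95 for miR-107 (adjusted p = 0.0693), by edgeR. In LH vs. FH their log2 fold changes were 0.34 and 0.00 (SE 0.329 and 0.371).

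Of the miR-17-92 group, none of 9 tested was past the threshold in LH vs. LL by edgeR or by DESeq2, against 13% of all miRNAs, and 1, miR-92a, had an unadjusted P under 0.05 (log2 fold change -0.81). Over the phases, where 10.3% of all miRNAs were past it on the lower side, 1 of 10 was, miR-19b (-1.28, SE 0.436, adjusted p = 0.0591), the miRNA with the pattern most like that of miR-497. In FH vs. FL 1 of 9 tested, miR-20a, was past the threshold (-1.13, adjusted p = 0.644, edgeR). There 6.19% of all miRNAs were past it, and 0.651% on the lower side. Of the 9 other miRNAs known to restrain the cell cycle, 2 were lower in LL than in LH past the threshold, against 6.35% of all miRNAs. These were miR-26a (-1.11, SE 0.416, adjusted p = 0.254) and miR-34c (-7.63, SE 2.41, adjusted p = 0.220), the latter also in the epithelial list above. miR-34c (ssc-miR-34c in the table) was at 21379 CPM in LH4 and at no more than 115 CPM in the other LH libraries, and at 7335 and 15224 CPM in FL2 and FL4. Its log2 fold change was of the opposite sign in FH vs. FL (5.12, adjusted p = 0.585, edgeR). Between the phases it was 5.21 in LH vs. FH (adjusted p = 0.2998) and -7.42 in LL vs. FL (adjusted p = 0.0304), by edgeR. Over the phases let-7c was lower in the luteal phase (-1.12, SE 0.197, adjusted p = 0.00222, edgeR). The median of the list was 0.15, beside 0.17 over all miRNAs and -0.015 over the known ones. The plot of the related lists sets these values beside those of the family.

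**Figure D5:**
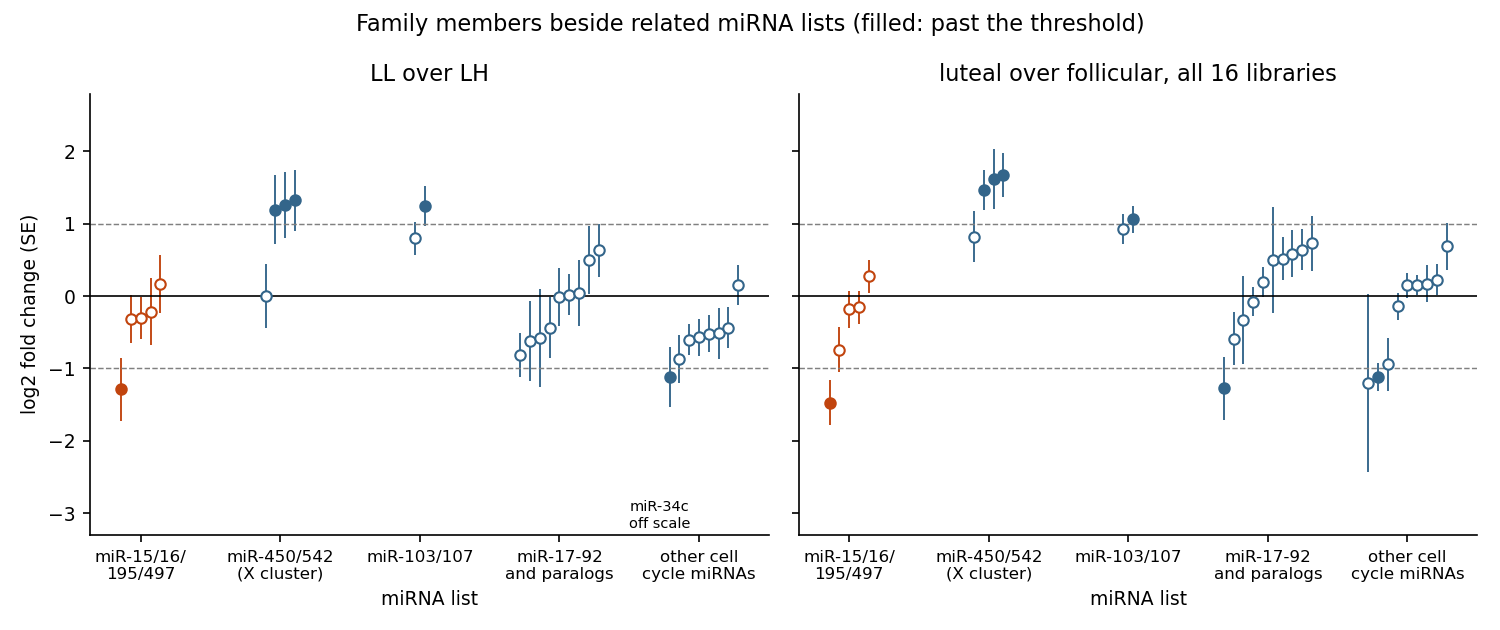
Log2 fold changes (points) with their SE (bars) of the 5 family members and of 4 lists of related miRNAs, for LL over LH and for the luteal over the follicular phase in all 16 libraries; filled points are past the threshold and miR-34c in LL over LH lies off the scale at -7.63. The list of miR-450 and miR-542 has 3 filled points above 1 in each panel, and the family 1 filled point below -1 in each.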

How the data were processed

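Ovarian tissue of 16 sows was used for small RNA libraries (NEBNext kit, no molecular identifiers). The authors cleaned the reads with Trimmomatic, mapped them to Sscrofa10.2 with Bowtie 2 (version 2.1.0) and searched the unmapped reads for new miRNAs with miRDeep. The values they deposited are raw read counts per miRNA and library, neither normalized nor filtered. The rule that assigned reads to a miRNA or an arm is not given in the sources used here, and 935 of the 1940 entries had the same counts as another entry, none of them a member of the family.

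Groups were taken from the sample titles. The main test was the quasi-likelihood test of edgeR 4.0.16 (R 4.3.3) with TMM scaling, the tool's own filter (minimum count 10, minimum total 15) and Benjamini-Hochberg adjustment, for 4 pairs of groups on 8 libraries each and for phase, fecundity and their interaction on all 16. Fold changes give low against high fecundity and luteal against follicular. Ratios of members (0.5 counts added to each) were tested by exact permutation within the other factor (4900 relabellings). The alternatives were DESeq2 1.42.0, library size scaling, TMM from the known miRNAs, dropping the filter, requiring 10 counts in 4 libraries, merging entries of equal counts, a single fit of all libraries, a replicate block, parity, the clean read share (reads kept by the authors' trimming), and leaving out each sow. Parity and the clean read share were read from the study's supplementary tables. Named miRNAs are all members, the related and marker lists (2 to 4 examples by smallest P) and, for each member, the 2 known miRNAs with the highest Pearson r. The members and lists were chosen with earlier results of these data known. A count of 0 allows up to 3 counts, which covers counting error only. Nothing in the labels ties sows of the same number, and same-numbered libraries did not deviate together (r from -0.19 to 0.37, over 0.1 in 4 of 24 pairs). The mRNA and lncRNA measurements were not analysed here.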

Additional observations from a re-analysis of the deposited data

Results flagged for a closer look

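In 5 of 36 tests of a group of 4 libraries, 1 library stood far from the other 3, where chance gives about 1 in 20. miR-497 in FH4 was at 1558 CPM, with the other FH libraries at 995 to 1034. The ratio of miR-15a to miR-16 in LH2 was 0.0420, with the others at 0.0581 to 0.0602. The ratio of miR-15b to miR-16 in LL2 was 0.0809 (others 0.125 to 0.134), and in FH1 it was 0.0991 (others 0.0670 to 0.0709). The ratio of miR-15b to miR-15a in FH2 was 0.937, with the others at 1.19 to 1.23. Without FH4 the log2 fold change of miR-497 in LH vs. FH was -1.35 (adjusted p = 0.165, edgeR).

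For 6 of the related miRNAs the fecundity by phase interaction over all 16 libraries was past the threshold by edgeR, beside 13.3% of the 445 miRNAs tested. By list these were 2 of 4 in the X chromosome cluster, 2 of 2 with the shifted seed, 0 of 10 in the miR-17-92 group and 2 of 9 other cell cycle miRNAs. A pass before adjustment does not show that the change of these miRNAs from high to low fecundity differed between the phases. The interaction log2 fold change was 1.76 for miR-450a, 1.68 for miR-450c-5p, 1.51 for miR-103, 1.95 for miR-107, -1.20 for let-7c and -12.91 for miR-34c. None of these had an adjusted p under 0.05, and miR-34c stood far above its level in the other libraries in LH4, FL2 and FL4.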

How the results depend on the processing

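Of 735 alternative values of the members, 667 kept their direction and their side of the threshold, 37 changed sign, 18 passed the threshold newly and 13 lost it; 126 of 147 alternative counts of miRNAs past the threshold stayed within 1.5 times, as did 96 of 147 counts by adjusted p, and 4 of the 10 correlations with the most similar miRNAs moved when centred within groups (0.74 in place of 0.87 for miR-497 with miR-145-5p, 0.96 in place of 0.82 for miR-16 with miR-20a, and 0.92 in place of 0.95 for miR-195 with both). With library size scaling in place of TMM the sign turned for miR-15b (0.28), miR-16 (0.30) and miR-497 (0.41) in LH vs. LL, miR-15b (0.22) and miR-497 (0.043) in FH vs. FL, miR-16 (0.55) in LL vs. FL, miR-15a (0.22) and miR-16 (0.27) over the phases, miR-15a (0.33), miR-15b (0.25), miR-16 (0.020) and miR-497 (0.23) over fecundity, and miR-15b (0.059) in the interaction. This scaling moved the median of all miRNAs up by 0.60 in LH vs. LL, 0.39 in FH vs. FL, 0.19 in LH vs. FH, 0.37 in LL vs. FL, 0.37 over the phases, 0.46 over fecundity and 0.30 in the interaction. It also changed the split of calls from 53 higher and 48 lower to 64 and 29 in LL vs. FL, from 58 and 46 to 89 and 26 over the phases, from 32 and 20 to 67 and 9 over fecundity, from 18 and 41 to 26 and 29 in the interaction, and from 31 and 9 to 39 and 8 in LH vs. FH. In LH vs. LL, miR-15a turned with parity (-0.82) and the clean read share (-0.0086), and miR-16 with the clean read share (0.051). The cause was not tested. Without a filter, with more miRNAs tested, 158, 93, 117, 222, 203, 129 and 122 miRNAs were past the threshold in place of 47 (LH vs. LL), 19 (FH vs. FL), 40 (LH vs. FH), 101 (LL vs. FL), 104 (phases), 52 (fecundity) and 59 (interaction). The clean read share gave 14 in LH vs. LL, 6 in FH vs. FL and 17 over fecundity, parity gave 5 in FH vs. FL and 26 over fecundity, and the single fit of all libraries gave 37 in FH vs. FL.

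With the replicate number as a block, a pairing the data did not bear out, 4 miRNAs were past the threshold in FH vs. FL and 39 in the interaction, miR-16 turned in LL vs. FL (0.069) and miR-497 lost its call there (-1.32, adjusted p = 0.328, edgeR). It changed no other call of a member in the 7 comparisons.

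Leaving out each sow gave 33 (without LL1) to 94 (without LH1) miRNAs past the threshold in LH vs. LL, 11 (without FL4) to 43 (without FL1) in FH vs. FL, 24 (without FH2) to 55 (without LH2) in LH vs. FH, 96 to 141 in LL vs. FL, 110 to 142 over the phases, 37 to 72 over fecundity and 57 to 79 in the interaction. Log2 fold changes whose sign turned without a sow ran from -0.030 to 0.31 for miR-15a and from -0.48 to 0.020 for miR-497 in LH vs. LL, from -0.20 to 0.064 for miR-15b in FH vs. FL, from -0.51 to 0.0048 for miR-16 in LH vs. FH, from -0.36 to 0.13 for miR-16 in LL vs. FL, and from -0.12 to 0.26 for miR-16 and from -0.13 to 0.37 for miR-497 in the interaction. The log2 difference in the ratio of miR-15a to miR-16 between the phases ran from -0.19 to 0.0061, and that of miR-497 to miR-195 from -0.98 to -0.59 between the phases and from 0.47 to 0.86 for fecundity. Counts of at least 263 per member and library leave counting error small beside the spread between sows, and with 4 sows per group changes smaller than that spread were not detectable.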
